A study of Mus musculus with 2 samples.

Results

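Interstitial collagens and the matrix genes around them were followed in newborn mouse kidney as 39 named genes of the 21938 protein-coding genes in the GENCODE M21 annotation. They were taken as a named list: 5 fibrillar collagens, 7 other collagens, 4 proteoglycans, 9 elastic fibre genes, 6 adhesive and matricellular glycoproteins, and 8 remodelling enzymes and inhibitors. DNase-seq, in which the nuclease DNase I cuts open chromatin and the cut ends are sequenced, was run on kidney tissue of B6NCrl mice aged 0 days. There is 1 group of 2 biological replicates, the labels name no treatment or mutation, and sex was not collected. Both replicates carry the same donor record and each has its own tissue record, and the difference between them may therefore be technical only. For every gene the strongest peak within 1 kb of any of its annotated transcription start sites was read in each replicate, and is called its promoter peak. The signal of a peak is the authors' own value for that peak and has no stated scale. A shared distal site is a stretch covered by overlapping peaks of both replicates, with no start site of any gene within 1 kb, and it was assigned to each gene whose most 5′ start site lay within 50 kb.

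Fibrillar collagens are the tensile cables of connective tissue. Small leucine-rich proteoglycans and the fibril-associated collagens coat those cables, microfibrils and elastin give recoil, and matricellular proteins tune how cells hold on to the matrix. Lysyl oxidases cross-link collagen and elastin, metalloproteinases cut the matrix, and tissue inhibitors restrain the cutting. In the kidney most of this matrix is made by stromal fibroblasts, pericytes and vascular smooth muscle cells, whose progenitors surround the nephron-forming zone at birth.

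Nearly all of these genes had an open promoter, and most had more distal sites around them than a typical gene. A promoter peak was found in both replicates for 38 of the 39 genes (97.4%), where 71.8% of all protein-coding genes had one, and the exception was Loxl2, a lysyl oxidase family enzyme. Their promoters were nevertheless of middling strength. Counting a missing peak as 0, the median promoter signal was 80.3 in replicate 1 and 70.4 in replicate 2, beside 59.3 for all protein-coding genes over the mean of the replicates. Among protein-coding genes with a peak in both replicates the median was 99.8, and 11 of the 39 genes lay above it, where 35.9% of all protein-coding genes did. The median number of shared distal sites was 13, with a range from 0 to 36, beside 6 for all protein-coding genes. It was 10 in 84 further genes of the same pathways, 15 in 12 kidney markers and 13 in 10 renal stroma markers, all read below. Of the 39 genes, 25 had at least 11 such sites, the upper quartile of all protein-coding genes, which 25.9% of those genes reached. In bulk tissue, fewer cells of a type and less accessibility per cell cannot be told apart. With 1 group of 2 replicates no test between conditions exists, and the counts are descriptions.

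**Figure D1:**
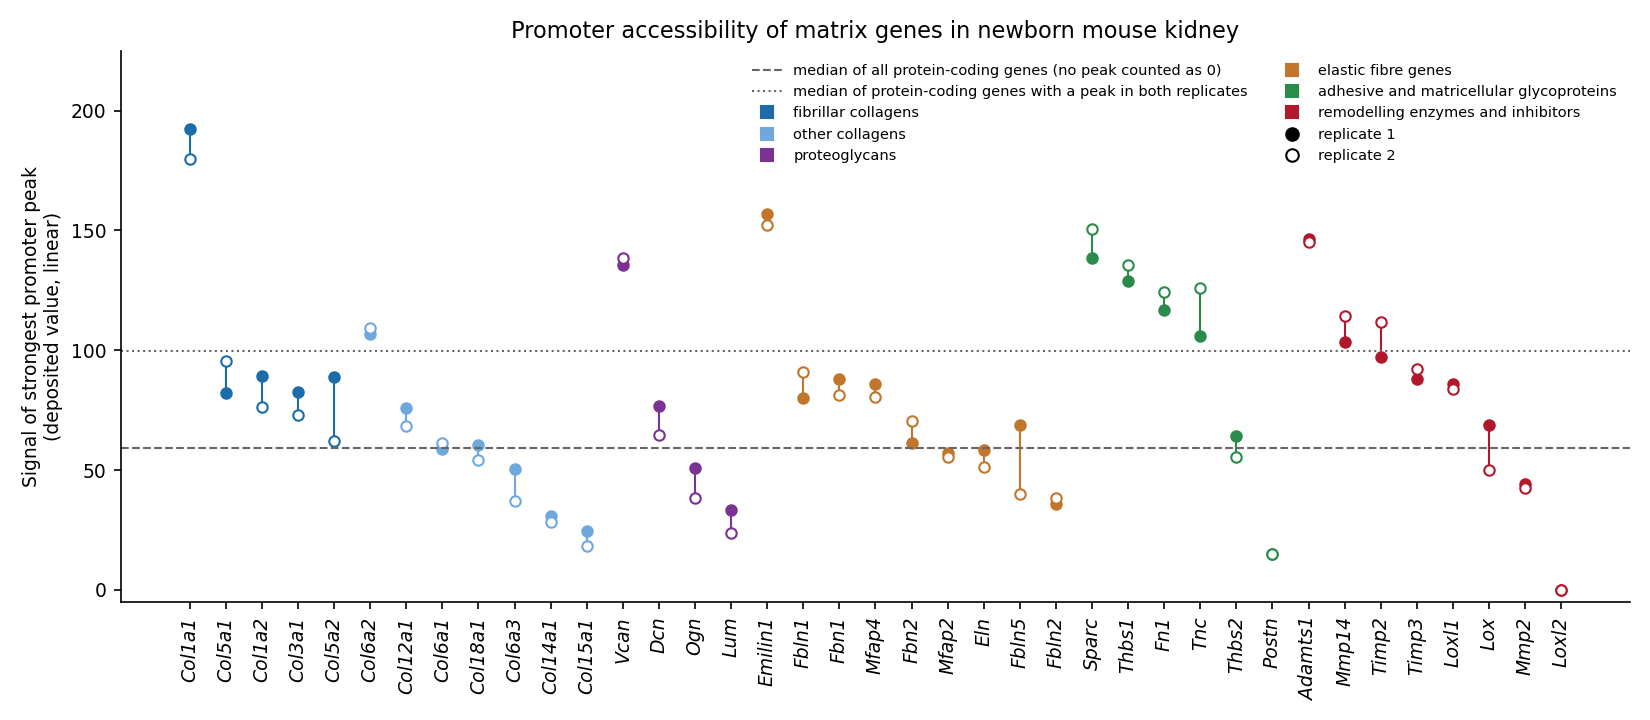
Signal of the strongest promoter peak (vertical axis, deposited value on a linear scale) of each of the 39 genes, grouped by role and sorted by mean, with replicate 1 filled and replicate 2 open; a gene with no peak is drawn at 0. Col1a1 stands highest at 192 and 180.0, Postn is the lowest gene with a peak at 15.1 and 14.9, and the dashed and dotted lines mark the medians of 59.3 and 99.8 over protein-coding genes.

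The fibrillar collagens all had promoter peaks in both replicates, with a median mean signal of 82.7. Col1a1 encodes the main chain of type I collagen and lies on the plus strand at chr11:94936224-94953042 of the mm10 build. It gave 192 in replicate 1 and 180.0 in replicate 2, the highest of the 39 genes in both. Its partner chain Col1a2 gave 89.1 and 76.3. Col3a1, the type III collagen chain of pliable tissue, gave 82.6 and 73.2. The type V chains, which set fibril diameter, were of similar level, with 82.3 and 95.7 for Col5a1 and 88.7 and 62.2 for Col5a2. Apart from Col1a1, the 4 other fibrillar collagens therefore overlapped one another and stayed below the 99.8 median of genes with a peak.

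The strongest Col1a1 site was not at the start of the gene. It lay in the first intron, centred 942 bp after the most 5′ start, while the peak centred 28 bp before that start gave 60.9 and 62.5. Away from its starts, Col1a1 had 12 shared distal sites, and 2 of them were far stronger than the peak at the start: a site 7248 bp upstream with 135 and 165, and a site 42882 bp downstream with 137 and 162, whose nearest coding gene is Sgca, a dystrophin-complex gene. Col1a2 was arranged differently. The peak at its most 5′ start gave 14.6 and 13.5, and its strongest promoter sites lay 752 and 1562 bp further in. The nearer of these gave 89.1 and 67.0 and lay 73 bp from a coding start that is 679 bp downstream of the most 5′ one. A cluster of strong sites stood far upstream, at 14728, 15258 and 16278 bp before the most 5′ start. The middle one of that cluster gave 120.2 and 121, the side toward the gene gave 118 and 106, and the far side gave 73.1 and 77.5. In replicate 2 all 3 exceeded the promoter peak of 76.3, and in replicate 1 the far one did not reach its 89.1. Col1a2 had 16 distal sites in all, the most of the fibrillar collagens, Col5a1 had 15 and Col3a1 had 11. Col5a2 had 6, the fewest.

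The sequences behind this arrangement of the type I collagen genes are the intronic peak of Col1a1, its upstream site, and the middle upstream site of Col1a2. They were read from the RefSeq copy of the same mouse assembly (GRCm38.p6) on the plus strand, and capitals mark exact matches to the motifs searched, on either strand.
Col1a1 intron, chr11:94937081-94937250: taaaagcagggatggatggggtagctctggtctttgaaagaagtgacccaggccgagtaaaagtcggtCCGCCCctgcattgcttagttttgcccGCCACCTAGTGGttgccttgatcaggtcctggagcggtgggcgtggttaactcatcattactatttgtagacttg
Col1a1 upstream, chr11:94928901-94929050: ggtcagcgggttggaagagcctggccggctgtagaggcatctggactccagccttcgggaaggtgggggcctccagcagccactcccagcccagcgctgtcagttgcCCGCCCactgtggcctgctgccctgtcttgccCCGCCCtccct
Col1a2 upstream, chr6:4489481-4489630: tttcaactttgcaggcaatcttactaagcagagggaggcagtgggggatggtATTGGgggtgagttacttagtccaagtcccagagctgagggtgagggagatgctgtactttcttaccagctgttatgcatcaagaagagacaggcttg
The intronic peak holds a GC box (GGGCGG), the binding sequence of Sp factors, and a CTCF match, the sequence read by the insulator protein CTCF. Of all strongest promoter peaks of protein-coding genes, cut to the same 150 bp, 49.7% held a GC box and 5.34% a CTCF match. The upstream Col1a1 site holds 2 GC boxes, which 5.60% of all distal sites cut to that length had at least once. The Col1a2 site holds a CCAAT box, present in 16.1% of all distal sites. These matches describe the letters and do not show that a factor was bound.

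The other collagens had the lowest median promoter signal of any role, 57.4, and the widest spread in distal sites. The proteoglycans were close to them at 57.7, and in replicate 2 they were lower, 51.6 against 54.4. The type VI chains build beaded filaments around cells: Col6a2 gave 107 and 109, the highest of this role, Col6a1 gave 58.8 and 61.1, and Col6a3 gave 50.7 and 37.1. The neighbours on the same chromosome, Col6a1 and Col6a2, had 10 and 13 distal sites, and Col6a3 had 5, the fewest of the role. The fibril-associated collagens Col12a1 and Col14a1 gave 76.0 and 68.4, and 30.8 and 28.4, with 14 and 17 distal sites. Col15a1 and Col18a1 are the multiplexins of the border between basement membrane and stroma. Col15a1 had the weakest promoter of the role, 24.8 and 18.5, with 21 distal sites. Col18a1, the precursor of endostatin, gave 60.5 and 54.4 and had 36 distal sites, the most of all 39 genes. Of those 36 sites, 23 lay inside the gene and 33 had Col18a1 as the nearest coding gene, and its strongest by mean rank, 40228 bp upstream, gave 79.1 and 86.9, beside 88.2 and 75.2 at a site 35782 bp downstream. In Col15a1 and Col14a1 the strongest distal sites gave 54.9 and 64, and 65.0 and 86.7, 2.75 and 2.56 times their mean promoter signal. These ratios depend on the limit of 1 kb: the Col15a1 site lies 1829 bp from a start of Col15a1, and within 2 kb the mean promoter signal was 59.4 for Col15a1 and 68.9 for Col14a1.

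Among the proteoglycans, Vcan stood apart from the 3 small leucine-rich genes. Vcan encodes versican, a large hyaluronan-binding proteoglycan, and gave 136 and 139, at a coding start 2112 bp downstream of the most 5′ one. At that most 5′ start its peak gave 74.4 and 65.4. Decorin, a collagen-binding proteoglycan, gave 76.6 and 64.7 for its gene Dcn, osteoglycin gave 51 and 38.4 for Ogn, and lumican, another collagen-binding member, gave 33.2 and 23.8 for Lum. The order Vcan, Dcn, Ogn, Lum was the same in both replicates and the values of neighbours did not overlap. This role had the fewest distal sites, a median of 8 and a range from 5 to 8, with none of the 4 genes at the upper quartile of 11. Dcn had 5, and Lum, Ogn and Vcan had 8 each. Of their 29 sites 1 (3.45%) was in the top decile of all distal sites, a Vcan site 36947 bp upstream with 61.1 and 53.3. The strongest site was 28.6 and 19.8 for Lum, 31.6 and 32.8 for Ogn and 40.2 and 31.2 for Dcn. Ogn lies inside another coding gene, Cenpp, and none of its 8 sites had Ogn as the nearest coding gene. Dcn and Lum lie side by side, with starts 85519 bp apart, and shared 0 distal sites. Their windows of 50 kb to each side overlap only in part, so this count cannot show whether the genes have sites in common.

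Elastic fibre genes ranged from 37.1 to 154.5 in mean promoter signal, with a median of 65.9. Emilin1, a glycoprotein of elastic fibre surfaces, led with 157 and 152. Fibrillin-1, the main microfibril protein, gave 88.1 and 81.5 for Fbn1, and Fbn2, fibrillin of developing tissue, gave 61.4 and 70.4. Elastin itself was lower, with 58.2 and 51.4 for Eln. The fibulins bridge microfibrils, elastin and basement membranes: Fbln1 gave 80.3 and 90.8, Fbln5 gave 68.9 and 39.8, and Fbln2 gave 36 and 38.2, the lowest of the role. The drop from 68.9 to 39.8 in Fbln5 was the widest gap between replicates among the 38 genes, -0.78 on the log2 scale after centring. The microfibril-associated genes Mfap2 and Mfap4 gave 57.1 and 55.3, and 86.0 and 80.4. Fbn1 depends on which start is used: its peak lies at the coding start 1608 bp downstream, and within 1 kb of the most 5′ start there was no peak in replicate 1 and one of 21 in replicate 2.

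Fbln1 had the most distal sites of the elastic fibre genes, 20, and Fbln2 the fewest, 5. Mfap2 had 19, none of them with Mfap2 as the nearest coding gene, Fbn1 15, Fbln5 13, Emilin1 and Mfap4 12 each, Eln 11 and Fbn2 6. The strongest distal site near any of the 39 genes lay in an Emilin1 intron, 2684 bp after the start, with 217 and 229. It was stronger than the Emilin1 promoter in both replicates. Its sequence on the plus strand, read from the same assembly, is printed with the one motif match in capitals.
Emilin1 intron, chr5:30916001-30916170: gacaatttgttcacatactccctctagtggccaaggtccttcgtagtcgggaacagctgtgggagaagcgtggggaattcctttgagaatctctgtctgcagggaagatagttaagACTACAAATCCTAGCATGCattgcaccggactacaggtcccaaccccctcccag
The match is to the sequence read by the zinc-finger protein ZNF143 and was searched on both strands. That motif was chosen after this sequence had been read, and 0.00861% of all 151068 distal sites held it.

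The adhesive and matricellular glycoproteins had the highest median promoter signal of the 6 roles, 111 in replicate 1 and 125 in replicate 2. Sparc, a collagen-binding glycoprotein, gave 139 and 150.5. Thrombospondin-1, an adhesive inhibitor of angiogenesis, gave 129 and 135 for Thbs1, and fibronectin, the provisional scaffold on which collagen is laid down, gave 117 and 124.5 for Fn1. Tenascin-C, which loosens cell adhesion in developing tissue, gave 106 and 126 for Tnc. Below these 4 came Thbs2, another thrombospondin, with 64.1 and 55.5, and Postn, the collagen-linked periostin gene, with 15.1 and 14.9. Postn was the weakest of the 38 promoters: only the site 33 bp before its start was in both lists, with 13.8 and 14.9. In replicate 1 its strongest peak lay near an internal start of a shorter transcript, 16451 bp downstream.

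The upstream parts of the Postn and Tnc promoter peaks are shown because a weak and a strong promoter both hold the letters of a TATA box, closer to the start in Postn than in Tnc. Both are printed in the direction of transcription up to the base before the most 5′ start, on the plus strand for Postn and the minus strand for Tnc, with the TATA box (TATAAA) in capitals.
Postn, chr3:54361001-54361108: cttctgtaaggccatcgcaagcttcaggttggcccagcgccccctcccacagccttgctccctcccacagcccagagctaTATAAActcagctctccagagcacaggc
Tnc, chr4:64047016-64047150: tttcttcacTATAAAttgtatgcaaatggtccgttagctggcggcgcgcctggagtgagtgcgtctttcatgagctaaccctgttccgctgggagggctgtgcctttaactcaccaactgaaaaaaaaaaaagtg
Of all strongest promoter peaks of protein-coding genes in replicate 1, 2.68% held a TATA box on either strand. Of the strongest replicate 1 peaks of the 38 genes, 3 did (7.89%), those of Tnc, Thbs2 and Adamts1. The Postn peak at the start is not its strongest in replicate 1 and is not among these 3. Positions refer to the most 5′ start in GENCODE. The match begins at base 81 of the 108 printed for Postn and at base 10 of the 135 for Tnc. The Thbs2 match lies on the opposite strand. In the RefSeq table, whose promoters run from 250 bases before to 50 after a start, that of Tnc holds a TATA box and that of Postn does not. With the match limited to 45 to 15 bases before that start, 1 of 24 genes (4.17%) had one, beside 2.89% of all promoters. That gene was Adamts1, and Tnc, Thbs2 and Postn had none there.

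Distal sites were also most numerous in this role, with a median of 18. Sparc had 26, Thbs2 20, Thbs1 19, Tnc 17, Fn1 10 and Postn 7. The Sparc promoter peak lay 3267 bp after the most 5′ start, beside a group of later coding starts, and within 1 kb of the most 5′ start the mean signal was 18.4. Around it stood 9 sites in the top decile of all distal sites, the most of the 39 genes. The strongest, 5183 bp upstream, gave 139 and 161, and another in the gene, 16847 bp downstream, gave 134 and 124. In Postn, sites 2423, 3413 and 7633 bp upstream of its start gave 51.8 and 54.3, 56.2 and 70.9, and 49.6 and 61.1, each over the promoter values of 15.1 and 14.9. Within 2 kb of its starts the mean Postn promoter signal was 30.2.

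Of the remodelling enzymes and inhibitors, Adamts1 had the strongest promoter and Loxl2 the only missing one. Adamts1, a metalloproteinase that cleaves versican, gave 147 and 145. Mmp14, the membrane-bound collagenase that activates Mmp2, gave 104 and 114.5, and Mmp2, a gelatinase, gave 44.1 and 42.3. The inhibitors gave 97 and 112 for Timp2 and 88.2 and 92.0 for Timp3, which binds the matrix. Lysyl oxidase gave 68.8 and 50.02 for Lox, and Loxl1, needed for elastin cross-linking, gave 86.1 and 84.0. The 2 metalloproteinases Mmp2 and Mmp14 therefore differed by more than the replicates of either.

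Loxl1 had 23 distal sites, the most of this role, followed by Timp3 with 21, Timp2 with 20, Mmp14 with 14, Adamts1 with 13, Mmp2 with 10, Lox with 5 and Loxl2 with 0. The role had the largest share of strong distal sites, 22 of 106 (20.8%) in the top decile. Mmp2, with its weak promoter, had a site 8935 bp upstream that gave 122 and 145. Loxl1 had one in its own intron 17200 bp downstream, with 111 and 124. The strongest site of Adamts1 lay 46817 bp downstream, past the end of the gene, and gave 156 and 141, close to its promoter. Of the strongest distal sites of the 38 genes that have one, 6 (15.8%) hold an AP-1 match (TGANTCA). This is a loose form of the sequence read by Fos and Jun proteins, with any base allowed in the middle. Of all distal sites, of any strength, 6.90% did. The part of site strength in this difference was not tested. The 6 sites are those of Sparc, Adamts1, Col6a2, Col12a1, Col14a1 and Col18a1. The middle base of the match is A in Sparc (TGAATCA), T in Col12a1 (TGATTCA), and C or G in the others. The sites of Sparc and Adamts1 are printed on the minus strand, in the direction of each gene, with the match in capitals.
Sparc upstream, chr11:55428281-55428450: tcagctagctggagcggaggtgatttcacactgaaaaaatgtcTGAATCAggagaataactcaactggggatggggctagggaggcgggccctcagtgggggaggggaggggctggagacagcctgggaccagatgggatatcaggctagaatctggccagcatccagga
Adamts1 downstream, chr16:85756221-85756370: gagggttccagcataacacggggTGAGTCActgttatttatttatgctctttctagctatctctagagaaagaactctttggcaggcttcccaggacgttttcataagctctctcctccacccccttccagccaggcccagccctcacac

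Loxl2 stood out as a gap rather than as a single closed promoter. No peak of either replicate lay between bases 69249431 and 69692480 of chromosome 14, a stretch of 443 kb that holds the starts of 7 coding genes: Loxl2, Entpd4, Entpd4b, Gm16867, Gm27179, Slc25a37 and Synb. The first peaks after it lay inside Loxl2, at its far end, with 15.4 and 10.9. Within 1 kb of the most 5′ Loxl2 start, 98.2% of all windows of 36 bases occurred again elsewhere on the assembled chromosomes, and within 50 kb 99.9% did. For the other 38 genes those shares ranged from 0 to 15.5%, with a median of 0, and from 1.46 to 16.4%. The part of repeated sequence in the missing Loxl2 peaks was not tested, and the sources used here do not say how reads with several matches were treated in calling peaks. Per the file headers, a signal track of unique reads was made from the same alignments.

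Between roles, the median of the mean promoter signal was 118 for adhesive and matricellular glycoproteins, 87.6 for remodelling enzymes and inhibitors, 82.7 for fibrillar collagens, 65.9 for elastic fibre genes, 57.7 for proteoglycans and 57.4 for other collagens. The ranges of all 6 roles overlapped, so the order describes medians of 4 to 9 genes. The 6 listed adhesive and matricellular genes kept the first place under every window, start set, filter and single replicate tried. Further genes of that role, read below, did not rank first. For distal sites the medians ran from 18 in that role through 14 in other collagens, 13.5 in remodelling genes, and 12 in both fibrillar collagens and elastic fibre genes, to 8 in proteoglycans. The 4 listed proteoglycans kept the last place under every setting tried, while the first place changed. The plot of distal counts shows that their 4 bars all lie within the quartiles of protein-coding genes.

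**Figure D2:**
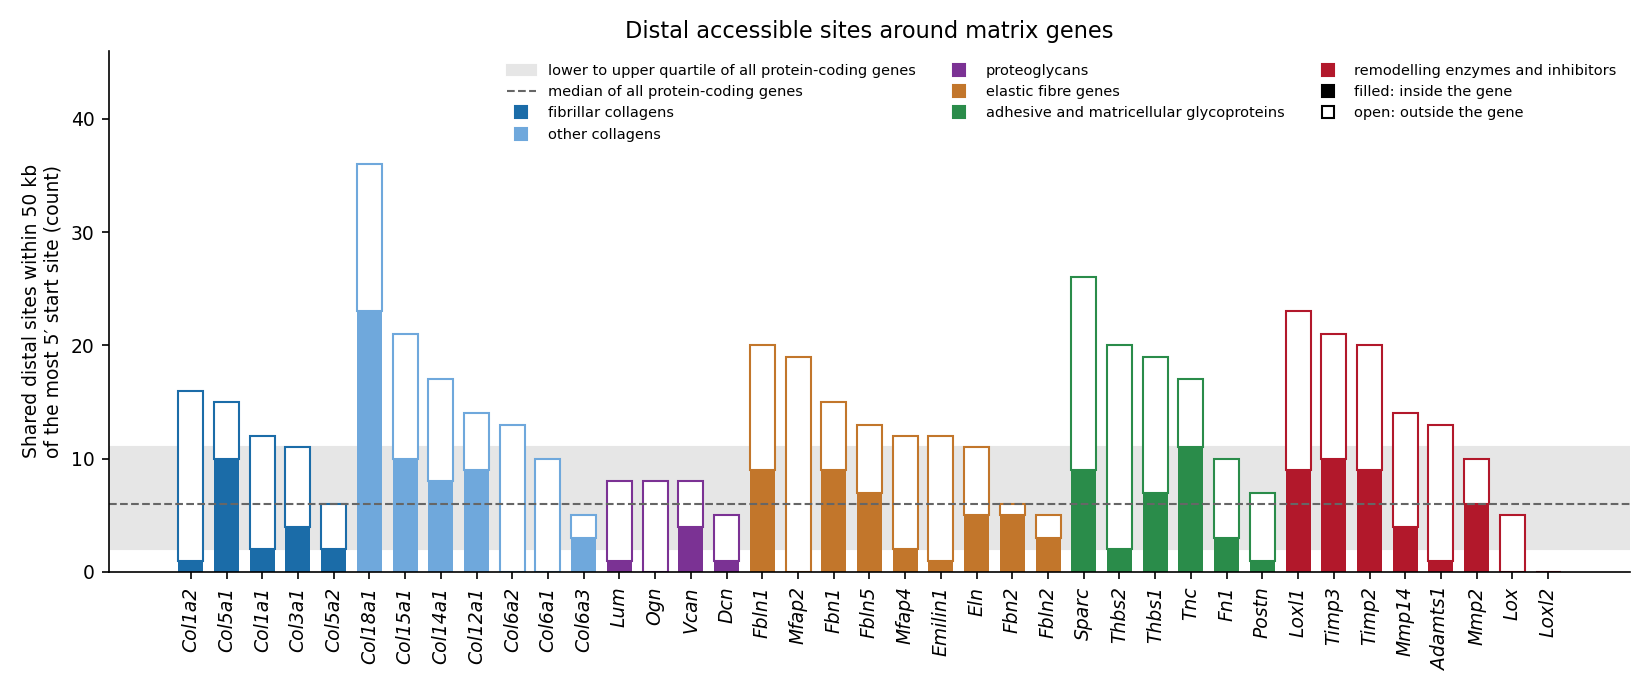
Number of shared distal sites within 50 kb of the most 5′ start site (vertical axis, count) for each of the 39 genes, grouped by role, with sites inside the gene filled and sites outside it open; the grey band spans the quartiles 2 to 11 of all protein-coding genes and the dashed line their median of 6. Col18a1 is the tallest bar at 36 and Sparc follows with 26, and Loxl2 has 0.

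The 39 genes together had 523 distal sites, all of them distinct. Of these, 254 lay upstream, 191 lay inside the gene itself (172 in introns and 19 in exons), and 406 had the gene in question as their nearest coding gene. The ratio to other genes was highest from 1 to 5 kb. From 1 to 5 kb from the start there were 2.21 ± 1.87 sites per gene (SD over the 39 genes), beside 0.766 for protein-coding genes, a ratio of 2.88. From 5 to 10 kb the ratio was 2.11, from 10 to 25 kb it was 1.65, and from 25 to 50 kb it was 1.72. Of the 523 sites, 81 (15.5%) were in the top decile of all shared distal sites by mean rank, a class that holds 10% of all sites by definition.

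For 17 of the 38 genes with a promoter peak (44.7%), the strongest distal site was stronger than the promoter peak, where this held for 31.8% of protein-coding genes with a promoter peak and a distal site. The ratio was 4.24 for Postn, 3.08 for Mmp2, 2.75 for Col15a1 and 2.56 for Col14a1, and it was lowest for Thbs1, 0.36. These ratios depend on the limit of 1 kb. Within 2 kb the promoter signals of Postn, Col15a1 and Col14a1 were higher, as given above for each gene. The 38 genes also had more distal sites to take a maximum from, and the part of that number was not tested. The plot of sites around 8 genes shows both kinds: tall distal bars beside short promoter bars at Postn, and the reverse at Dcn.

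**Figure D3:**
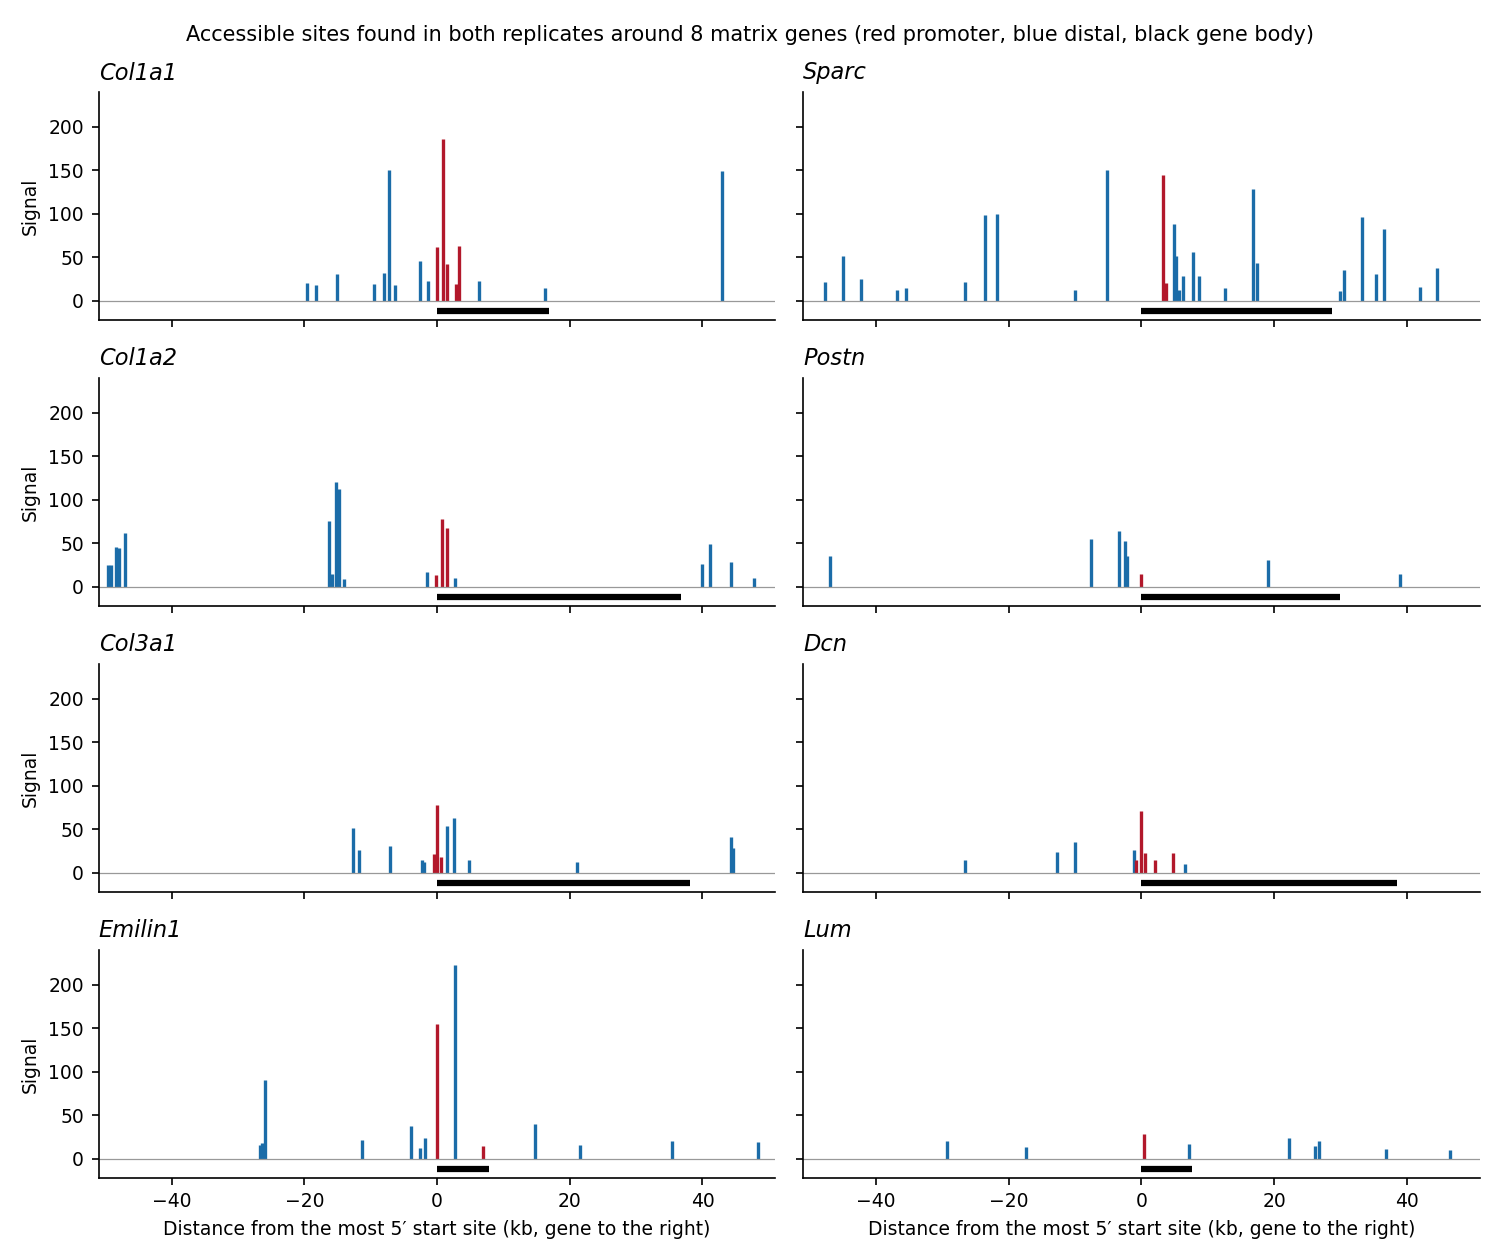
Mean signal of the 2 replicates (vertical axis) for sites found in both, against distance from the most 5′ start site in kb (horizontal axis, gene drawn to the right as a black bar), for 8 genes; red bars lie within 1 kb of a start site of the gene and blue bars are distal sites. Col1a1 has 3 tall bars, in its first intron, 7248 bp upstream and 42882 bp downstream, Col1a2 has its tallest near 15258 bp upstream, and Lum has none above its promoter mean of 28.5.

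The median CpG content of these promoters was below that of all genes. Over 500 bp to each side of the most 5′ start, the median ratio of observed to expected CpG was 0.43 in the 39 genes and 0.55 in all protein-coding genes. Sorted into 5 equal classes of that ratio over all genes, 16 of the 39 genes (41.0%) fell in the lowest classes 1 and 2, which hold 40% of all genes by construction. Class 1 held 3 of the 39 (7.69%), class 3 held 14 (35.9%), and the highest classes 4 and 5 held 9 (23.1%). All 3 genes of class 1, Emilin1, Sparc and Mfap4, had a promoter peak in both replicates, where 19.2% of class 1 genes did. All 13 in class 2 had one, beside 53.1%, and in class 3 it was 13 of 14, beside 89.6%. The 13 of class 2 were Col1a1, Col1a2, Col3a1, Col5a2, Col6a1, Col6a3, Dcn, Lum, Ogn, Eln, Fbn1, Postn and Thbs2. They include 4 of the 5 fibrillar collagens and 3 of the 4 proteoglycans.

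The signals were then set against genes of like CpG content. Among genes of their own class with a peak, 13 of the 16 genes in classes 1 and 2 lay above the median, with a median percentile of 68.8. Col1a1 stood at percentile 95.2, Emilin1 at 92.3 and Sparc at 90.9, while Postn stood at 11.7. In class 3 it was 7 of 14. In classes 4 and 5, 1 of 9 genes lay above its class median, with a median percentile of 25.2. The exception was Adamts1, at percentile 60.6. Col15a1 stood at 3.53 and Fbn2 at 15.3. In these counts CpG was read at the most 5′ start and signal at any start, and the peaks of Sparc and Fbn1 lie by later starts. With signal within 1 kb of the most 5′ start alone for all genes, an alternative chosen after seeing the data, 15 of 16 genes in classes 1 and 2 had a peak in both replicates, beside 27.1% of all genes there, and 12 of 16 lay above the median. In class 3 it was 6 of 14 above the median and in classes 4 and 5 again 1 of 9. Sparc then stood at percentile 39.9 and Fbn1 at 1.72, with Col1a1 at 98.2 and Emilin1 at 98.6. The plot of signal against CpG content shows the matrix genes over randomly drawn protein-coding genes, with signal read at any start. The class limits and class medians behind the counts above are not drawn in it.

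**Figure D4:**
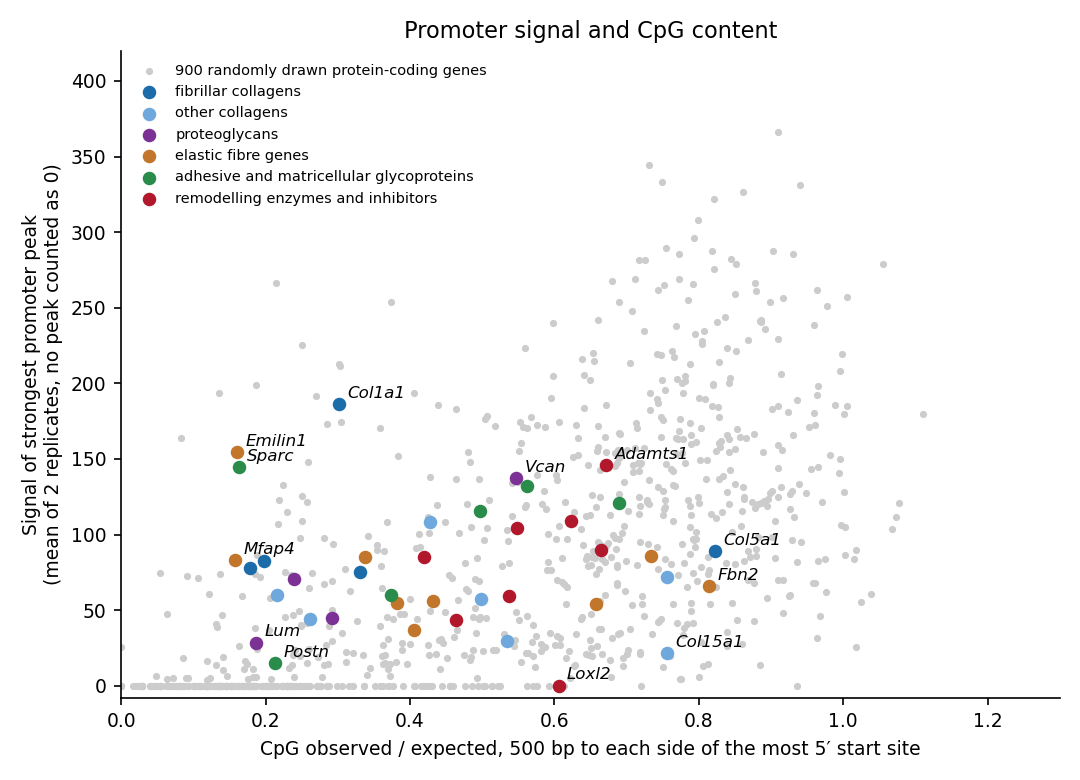
Mean signal of the strongest promoter peak (vertical axis, a missing peak at 0) against observed over expected CpG around the most 5′ start (horizontal axis), for the 39 genes coloured by role and 900 randomly drawn protein-coding genes in grey. Grey points of the lowest CpG class mostly lie at 0, and Emilin1 and Sparc lie at 154.5 and 145 in that class. The Sparc peak lies 3267 bp after the start where its CpG was read. Col1a1 lies at 186 in class 2, where 53.1% of protein-coding genes had a peak in both replicates.

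An AP-1 match, in the loose form TGANTCA with any middle base, was found in 56 of the 523 distal sites (10.7%). It was in 6.90% of all 151068 distal sites cut to the same length. It was most frequent around fibrillar collagens, in 9 of 60 sites (15%), followed by adhesive and matricellular genes with 14 of 99 (14.1%), other collagens with 15 of 116 (12.9%) and remodelling genes with 12 of 106 (11.3%). In elastic fibre genes it was in 5 of 113 (4.42%) and in proteoglycans in 1 of 29 (3.45%). Within the fibrillar collagens, 3 of 11 Col3a1 sites held it and 0 of 6 Col5a2 sites did. A forkhead match (TGTTTAC) went the other way, in 6 of 523 sites (1.15%) beside 3.18% of all distal sites. A TEAD match (GGAATG), read by the factors of the Hippo pathway, was in 14.9% of the 523 sites and 13% of all, and a CTCF match in 4.21% and 4.34%. The other motifs were searched on both strands as well. A CCAAT box was in 17.4% of the 523 sites beside 16.1%, a RUNX match (TGTGGT) in 12.8% beside 11%, a GC box in 7.27% beside 5.60%, a TATA box in 7.65% beside 9.01% a HOX match (TTTATGG) in 3.25% beside 3.53% and an ETS match (CCGGAAG) in 1.15% beside 1.52%. The TWIST or TCF21 E-box (CATATG) was in 1.91% beside 2.30%, and the CArG, MEF2, SMAD and NFI motifs were each in at most 5 of the 523 sites. In the strongest promoter peaks of replicate 1, a GC box was in 21 of 38 (55.3%) beside 49.7% of all. The ETS match was in 0 of 38 beside 12.3% of all. Sites around 1 gene are not independent of one another.

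Further genes of the same pathways were read in the same way, 84 of 85 listed genes being found in the annotation. A promoter peak was present in both replicates for 74 of them (88.1%), in 1 replicate for 2 and in neither for 8, with a median signal of 46.8. Over all protein-coding genes the share was 71.8% and the median 59.3. All 17 genes of collagen biosynthesis had one, with a median of 97. The highest were P4hb, the shared subunit of prolyl hydroxylase, with 258 and 313, and Plod3, a lysyl hydroxylase, with 244 and 291. All 6 further fibrillar collagens had one, led by Col27a1 with a mean of 93.6 and Col11a1 with 71.1. In other collagens it was 10 of 11, led by Col16a1 with 97.8 and Col23a1 with 85.0, and Col10a1 of growth-plate cartilage had none. In proteoglycans it was 8 of 10, with Kera of the cornea lacking one, and Optc and Omd led with 62.8 and 62.3. All 9 elastic fibre genes had one, led by the latent TGF-beta binding proteins Ltbp1 with 111 and Ltbp3 with 92.3. Among adhesive genes it was 10 of 12, led by Ccn1 with 137 and Ccn2 with 100.5, and Tnxb had none. In remodelling genes it was 14 of 19 (73.7%), close to the share in all coding genes. Loxl3 and Adamts9 led with 143 and 99.0, and the clustered metalloproteinase genes Mmp1a, Mmp3, Mmp7, Mmp12 and Mmp13 had no promoter peak. Mmp8, on the same chromosome as these, had one in both replicates, with 11.1 and 15.9. In the 6 roles, further genes had median signals of 57.4 (elastic fibre), 49.0 (fibrillar collagens) and 39.9 (remodelling). The median was 34.6 in adhesive genes, 32.0 in proteoglycans and 21.4 in other collagens. The median of distal sites was 11.5 in further fibrillar collagens, 11 in adhesive genes and 9.5 in proteoglycans. It was 9 in elastic fibre and in remodelling genes and 8 in other collagens.

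The label of the tissue was checked against defining genes. All 12 kidney markers, among them Six2, Wt1 and Pax2, and all 10 renal stroma markers, among them Foxd1 and Pdgfra, had a promoter peak in both replicates, with medians of 59.2 and 66. In all protein-coding genes the share was 71.8% and the median 59.3. Genes of other collagen-rich tissues gave these counts: 3 of 7 bone genes, with Bglap, Bglap2, Ibsp and Phex in neither list, 6 of 7 cartilage genes with a median of 14.9, and 2 of 3 tendon genes with a median of 59.9, without Tnmd. Of skeletal muscle genes it was 5 of 8, without Acta1, Myh1 and Myh4, of adipocyte genes 2 of 4, without Adipoq, and of adrenal cortex genes 3 of 5. Whether cells of these types add to the signal of the 39 genes was not tested. The lists hold 266133 peaks in replicate 1 and 257133 in replicate 2, with median signals of 17.1 and 16.9, and 197749 shared sites. They give no read counts, so the sequencing depth is unknown. The strongest promoter peaks of the 2 replicates overlapped in 33 of 38 genes, the exceptions being Col1a2, Col5a1, Mfap2, Postn and Thbs1. For these exceptions the paired values and their ratio compare different sites. Thbs1, for example, gave 129 and 113 at one site and 113 and 135 at the other. Centred on the median ratio of all shared sites, the log2 ratio of replicate 2 to replicate 1 ran from -0.78 to 0.26, within 2-fold for all 38 genes.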

How the data were processed

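DNase-seq of newborn kidney tissue was analysed from 2 peak lists, 1 per biological replicate, both in narrowPeak layout on the mm10 build, per the labels. The authors deposited a signal value for each peak in column 7, used as it stands, and a −log10 p in the next column, which was not used. Reads were 36 nt long, per the file headers. The peak caller, the scale of the signal and the sequencing depth are not stated in what was available here, and lists called separately per replicate can differ with depth. Of the peaks, 99.4% and 99.5% are exactly 150 bp wide, so signal and not width was compared.

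Start sites came from GENCODE M21, with 21938 protein-coding genes. A promoter peak overlaps the 1 kb to either side of any start of a gene; distal sites are defined in the results. Overlap needed 1 bp. Sequences and exact motif matches came from the RefSeq copy of GRCm38.p6, the same build. Peaks and distal sites were cut to 150 bp around their centres for motif shares. Of the 39 genes, 24 were in the RefSeq promoter table. Python 3.11.15, numpy 2.4.6, numba 0.67.0, pysam 0.24.0 and matplotlib 3.10.9 were used. The counting steps were tested on simulated peaks planted at known places.

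The genes, roles, related genes, markers and motifs were chosen with earlier results of these data known. Every one of the 39 genes is named. In each role the highest and lowest by promoter signal and by distal count are described with their peaks. Related genes named are the 2 highest per role and the first 2 in alphabetical order without a peak. Mmp1a, Mmp3, Mmp7 and Mmp8 were named beyond this after their values were seen. No p-value is given, since there is 1 group and genes are not replicates. Alternatives changed the promoter window, the start set, the distal window, the overlap, the assignment to the nearest gene, the signal filter, the scaling and the replicates used; 1 more, on CpG classes, was chosen after seeing the data.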

Additional observations from a re-analysis of the deposited data

How the results depend on the processing

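The number of the 39 genes with a promoter peak in both replicates was 37 or 38 under every alternative tried: Fbn1 was lost with the most 5′ start alone, and Postn when peaks were limited to the upper 50% of signal. The median promoter signal stayed between 69.9 and 80.3. The median of 13 distal sites depends on its definition: it was 8 with the upper 50% of peaks by signal (3 for all protein-coding genes), 7 within 25 kb (3), 22 within 100 kb (13), 12 with an overlap of at least 75 bp, and 10 when only sites nearest to the gene counted. It was 17 both without replicate 1 and without replicate 2, where any peak of the remaining replicate counts. With the most 5′ start alone, mean promoter signal was 69.9 for Vcan, 10.5 for Fbn1 and 18.4 for Sparc; within 2 kb it was 68.9 for Col14a1, 59.4 for Col15a1 and 30.2 for Postn. Of the other comparisons for single genes and roles, 430 moved by less than the replicate spread and 245 moved further; a distal count has a small replicate spread, and 226 of the 245 were distal counts. In the order of roles by promoter signal, other collagens and proteoglycans exchanged places within 2 kb and without replicate 1, fibrillar collagens passed remodelling genes without replicate 2, and elastic fibre genes came last with the most 5′ start alone. By distal count, adhesive and matricellular genes lost the first place with the upper 50% of peaks and within 100 kb. No paired analysis was possible because there is 1 group. Depth is unknown, so a missing peak does not show closed chromatin.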
